A study of Mus musculus with 9 samples.

Results

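The CXC chemokines described here are 10 genes taken by name (Cxcl1, Cxcl2, Cxcl3, Cxcl9, Cxcl10, Cxcl11, Cxcl14, Cxcl16, Pf4 and Ppbp) from a table of 46078 mouse genes, and all 10 were found, each on 1 row. They were followed in 3 kinds of cultured macrophage from C57BL/6J mice, with 3 RNA libraries of each. BMM were bone marrow macrophages, whose medium the labels do not describe. FLM_M were fetal liver macrophages (gestational day 15 to 19) grown with 30% L-cell supernatant, a source of the growth factor M-CSF, and 20% serum. FLM_G were fetal liver macrophages of the same gestational days grown with 30 ng/ml recombinant GM-CSF and 10% serum. The labels name no stimulus and no sex. All cells had been cultured for at least 8 weeks and were replated at 250000 cells per well the day before harvest. Nothing states that the triplicate wells were separate cultures or animals, so p-values here measure only how these libraries vary, and that variation may be technical.

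Chemokines are small secreted proteins that attract leukocytes through G protein-coupled receptors. The CXC class falls into groups by target. Cxcl1, Cxcl2, Cxcl3 and Ppbp carry a Glu-Leu-Arg motif, act on CXCR2 and recruit neutrophils. In macrophages Cxcl1, Cxcl2 and Cxcl3 are induced through NF-kB. Cxcl9, Cxcl10 and Cxcl11 are induced by interferons and attract T and NK cells through CXCR3. Pf4 (platelet factor 4) and Ppbp are stored in platelet granules, and Pf4 is also made by macrophages. Cxcl14 is a largely homeostatic chemokine, and Cxcl16 is a membrane-bound chemokine that binds CXCR6 and also acts as a scavenger receptor for oxidised lipoprotein.

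Levels are FPKM, in which reads are divided by transcript length and by the depth of the library, scaled between libraries. They are given as mean ± SD of 3 libraries where not listed singly. The depth was estimated from genes with 1 annotated transcript, where the commonest product of FPKM and transcript length was taken as 1 read. By this estimate each library held 28390000 to 35470000 reads, so 1 read over 1 kb was worth 0.0282 to 0.0352 FPKM as deposited. Changes are differences in log2(FPKM + 1), a scale on which low genes seem to change less than they do. Their standard errors (SE) come from limma. Genes with at least 1 FPKM in at least 3 libraries were tested (11952), and a call is a Benjamini-Hochberg adjusted p under 0.05. Pearson correlation across genes was 0.986 to 0.992 within a culture and 0.785 to 0.936 between cultures. All 8 macrophage markers checked had a mean of at least 5 FPKM in every culture, but their levels differed. Csf1r had means of 368, 433 and 119 FPKM in BMM, FLM_M and FLM_G, and Adgre1 201, 140 and 72.0. Itgam and Fcgr1 were likewise lowest in FLM_G, whereas Lyz2, Mertk and Ptprc were highest there and Cd68 was highest in FLM_M. BMM carried male expression of the sex genes (Xist at 0 to 0.0044 FPKM, Ddx3y at 8.47 to 10.4) and both fetal liver cultures female expression (Xist at 41.3 to 74.3), so in the comparisons with BMM sex cannot be told apart from tissue of origin. FLM_M and FLM_G also differ in serum, so the parts of L-cell supernatant, GM-CSF and serum cannot be told apart.

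Of the 10 genes, 8 lie on chromosome 5 (GRCm38, GENCODE M21, whole genes). The first block, chr5:90759360-90905938, holds in this order the non-member Cxcl5, then Ppbp, Pf4, Cxcl3, the non-member Cxcl15, Cxcl1 and Cxcl2, all on the plus strand within 146.6 kb. The second block, chr5:92321347-92365485, holds Cxcl9, Cxcl10 and Cxcl11 on the minus strand within 44.1 kb. Cxcl16 lies at chr11:70453983-70459984 and Cxcl14 at chr13:56288643-56296551, both on the minus strand. GENCODE lists Cxcl11 on this C57BL/6J assembly as a polymorphic pseudogene and the other 9 as protein coding.

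Neighbours in a block had very different levels, so upstream sequences of 6 genes are shown: the 3 neutrophil-attracting genes of which only Cxcl2 was above 1 FPKM, the interferon-inducible pair Cxcl9 and Cxcl10, and Pf4. Each is the 250 bases before the annotated start, 5′ to 3′ on the gene's own strand (RefSeq, GRCm38.p6). Entries were found for 8 of the 10 genes, not for Cxcl11 and Cxcl16. Capitals mark matches on either strand, which may overlap. The letters searched for were GGGANNTTC as part of an NF-kB site, GAAANNGAA as part of an interferon-stimulated response element, and TTCNNNGAA as a STAT site. For the AP-1 factors they were TGANTCA, for the myeloid factor PU.1 they were GAGGAAG, and for the GATA factors they were AGATAAG.
Cxcl1, chr5:90890995-90891244, plus strand: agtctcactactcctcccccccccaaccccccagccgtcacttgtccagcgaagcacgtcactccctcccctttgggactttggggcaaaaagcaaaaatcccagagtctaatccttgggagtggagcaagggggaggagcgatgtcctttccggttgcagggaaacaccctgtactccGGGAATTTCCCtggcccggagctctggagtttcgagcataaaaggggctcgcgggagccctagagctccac
Cxcl2, chr5:90903649-90903898, plus strand: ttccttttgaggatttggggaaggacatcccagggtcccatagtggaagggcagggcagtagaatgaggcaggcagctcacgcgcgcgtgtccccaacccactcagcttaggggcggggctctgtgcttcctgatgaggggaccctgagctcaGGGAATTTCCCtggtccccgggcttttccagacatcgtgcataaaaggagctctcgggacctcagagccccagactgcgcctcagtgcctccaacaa
Cxcl3, chr5:90785851-90786100, plus strand: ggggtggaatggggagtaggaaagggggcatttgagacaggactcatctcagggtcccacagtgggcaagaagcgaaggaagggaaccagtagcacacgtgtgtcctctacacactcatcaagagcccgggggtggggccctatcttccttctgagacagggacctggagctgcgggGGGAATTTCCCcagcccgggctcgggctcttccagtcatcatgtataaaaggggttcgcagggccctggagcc
Cxcl9, chr5:92328080-92328329, minus strand: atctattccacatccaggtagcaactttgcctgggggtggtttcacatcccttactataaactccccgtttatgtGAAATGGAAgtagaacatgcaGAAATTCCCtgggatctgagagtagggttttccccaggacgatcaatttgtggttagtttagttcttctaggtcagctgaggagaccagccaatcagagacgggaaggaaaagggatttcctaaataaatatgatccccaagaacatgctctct
Cxcl10, chr5:92348890-92349139, minus strand: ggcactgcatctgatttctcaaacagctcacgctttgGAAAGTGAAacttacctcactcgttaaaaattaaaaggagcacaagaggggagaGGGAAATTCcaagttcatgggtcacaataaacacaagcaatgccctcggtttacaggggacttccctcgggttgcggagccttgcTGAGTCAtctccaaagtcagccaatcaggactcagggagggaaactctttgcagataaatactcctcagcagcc
Pf4, chr5:90772185-90772434, plus strand: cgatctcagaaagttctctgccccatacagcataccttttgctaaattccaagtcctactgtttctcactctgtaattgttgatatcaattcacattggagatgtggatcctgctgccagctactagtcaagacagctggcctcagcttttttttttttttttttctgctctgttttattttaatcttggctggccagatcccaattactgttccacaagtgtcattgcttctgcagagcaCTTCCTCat
The same 11 letters, GGGAATTTCCC, stand in Cxcl1, Cxcl2 and Cxcl3, where both strands match the NF-kB letters and the matches overlap. They start 71, 97 and 73 bases before the start of Cxcl1, Cxcl2 and Cxcl3. Cxcl9 and Cxcl10 each hold both an interferon-response match and an NF-kB match, and Cxcl10 also an AP-1 match. Pf4 holds a PU.1 match alone. Among the genes searched but not shown, Cxcl14 also holds an interferon-response match, 172 bases before its start. It holds a STAT match 191 bases before it, and Ppbp holds an AP-1 match. Among all 32851 promoter entries of that length, 3.23% hold the NF-kB letters, 7.13% the interferon-response letters, 7.02% the STAT letters, 6.75% the AP-1 letters, 10.6% the PU.1 letters and 2.74% the GATA letters. A match describes the letters and says nothing of whether a factor binds.

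Among the neutrophil-attracting genes only Cxcl2 was expressed above 1 FPKM, and of the 5 genes tested it was the 1 called higher than BMM in both fetal liver cultures. The BMM libraries had 2.53, 2.0 and 1.84 FPKM of Cxcl2. It stood at 5.53, 6.81 and 7.41 in FLM_M, and at 8.11, 7.67 and 7.27 in FLM_G. Every fetal liver library lay above every BMM library, while FLM_M and FLM_G overlapped. Against BMM, Cxcl2 rose by 1.28 (SE 0.11, limma adjusted p = 2.36e-05) in FLM_M and by 1.48 (SE 0.11, limma adjusted p = 3.69e-06) in FLM_G. These are ratios of 3.10 and 3.62 between the mean levels. In the deposited counts, where Cxcl2 had 0 to 5 per library, DESeq2 gave 0.73 (adjusted p = 0.852) and 0.56 (adjusted p = 0.861) and neither was called. Between FLM_G and FLM_M the difference was 0.20, with a 95% interval of -0.05 to 0.46 (limma adjusted p = 0.136). Its sign depended on scaling, since the deposited FPKM were 6.32 to 8.39 in FLM_M and 5.83 to 6.66 in FLM_G, and without scaling the difference was -0.22 (adjusted p = 0.106).

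Cxcl1 and Cxcl3, the neighbours of Cxcl2 with the same NF-kB letters, stayed below 1 FPKM in all 9 libraries and were not tested. Cxcl1 read 0.433, 0.219 and 0.325 FPKM in BMM, 0.0105, 0.0148 and 0.0133 in FLM_M, and 0.576, 0.568 and 0.256 in FLM_G. FLM_M was thus the lowest culture for Cxcl1 in every library, at deposited values (0.012 to 0.0168) under those of 1 read over 1 kb, whereas its mean level of Cxcl2 was 3.10 times that of BMM. Cxcl3 read 0.083, 0.029 and 0.0508 in BMM, 0.0213, 0.028 and 0.0246 in FLM_M, and 0.0907, 0.259 and 0.21 in FLM_G. The 3 FLM_G libraries were the highest for Cxcl3 after scaling, while as deposited the lowest of them (0.0745) was below the highest BMM library (0.0907).

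The platelet-type genes Pf4 and Ppbp, neighbours 2.37 kb apart, differed widely in level. Pf4 had the highest level of the 10 genes in BMM and in FLM_M and was below 1 FPKM in FLM_G. It stood at 196.9, 188.3 and 191.4 FPKM in BMM, at 144.3, 186.7 and 160.4 in FLM_M, and at 0.626, 0.438 and 0.663 in FLM_G. No FLM_G library came near either of the other cultures. In BMM 98.1% of tested genes had a lower mean than Pf4, and in FLM_G 5.6% did. In FLM_G Pf4 was lower, with a change of -6.94 against BMM (SE 0.09, limma adjusted p = 6.15e-11) and of -6.70 against FLM_M (SE 0.09, limma adjusted p = 5.68e-11), and the means of BMM and FLM_M were 333.8 and 284.4 times that of FLM_G. After scaling the FLM_M libraries all lay below the BMM libraries, while as deposited FLM_M replicate 2 (211.6 FPKM) was above 2 of the BMM libraries (205.2 and 206.5). The difference of -0.24 (95% interval -0.45 to -0.02, limma adjusted p = 0.0711) was not called. It passed without FLM_M replicate 2 (-0.33, adjusted p = 0.0121) and with upper-quartile scaling (-0.25, adjusted p = 0.0495).

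Ppbp read 0.346, 0.161 and 0.309 FPKM in BMM, 0.0698, 0.118 and 0.237 in FLM_M, and was listed at 0 in the 3 FLM_G libraries. Ppbp has 1 annotated transcript, so its values convert to about 5.95 to 12.8 reads per BMM library and 3.0 to 10.3 per FLM_M library. BMM and FLM_M overlapped. Of 12 markers of megakaryocytes and platelets, 7 were at 0 in every BMM library, among them Gp9, Gp6 and Tubb1, and the list summed to 3.43 to 4.05 FPKM in BMM, 4.76 to 5.53 in FLM_M and 18.0 to 19.9 in FLM_G. The list was highest in FLM_G, the culture with the least Pf4, where Vwf (8.73), Clec1b (6.73) and Treml1 (3.24) set the sum. Of the 12 markers, 9 had a mean under 1 FPKM in FLM_G. The integrin gene Itga2b, which defines the lineage, had a mean of 0.025 FPKM in BMM and 0.0372 in FLM_G. The part of megakaryocytes and platelets in Pf4 was not tested.

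Of the interferon-inducible CXCR3 ligands, Cxcl10 differed between all 3 cultures, and Cxcl9 and Cxcl11 were near 0 in all of them. Cxcl10 stood at 3.49, 4.12 and 3.57 FPKM in BMM, at 59.0, 58.8 and 76.3 in FLM_M, and at 0.0373, 0 and 0.0495 in FLM_G. The FLM_M libraries were all high, the BMM libraries low, and the FLM_G libraries at or near 0. Cxcl10 rose by 3.79 in FLM_M against BMM (SE 0.10, limma adjusted p = 1.54e-08), with a mean level 17.4 times that of BMM. In FLM_G it was lower, with a change of -2.20 against BMM (SE 0.10, limma adjusted p = 1.52e-07) and of -5.99 against FLM_M (SE 0.10, limma adjusted p = 1.92e-10).

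Cxcl9 lies 18.56 kb from Cxcl10 and read 0.0283, 0.0962 and 0.0441 FPKM in BMM and 0.075, 0.0568 and 0.107 in FLM_M, with overlapping groups. It was listed at 0 in all FLM_G libraries. Cxcl11 lies 10.65 kb on the other side of Cxcl10 and read 0.0077, 0.014 and 0 in BMM and 0.19, 0.169 and 0.292 in FLM_M, also listed at 0 throughout FLM_G. FLM_M was above BMM in every library for Cxcl11, as for Cxcl10, but its mean of 0.217 FPKM was far below the 64.7 of Cxcl10. Neither Cxcl9 nor Cxcl11 reached the level for testing. The gene Art3, which spans Cxcl10 and Cxcl11 on the opposite strand, was at 0 to 0.0352 FPKM in all libraries.

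Cxcl14 was highest in BMM, lower in FLM_M and lowest in FLM_G. It stood at 54.3, 57.9 and 56.8 FPKM in BMM, at 9.94, 11.02 and 9.57 in FLM_M, and at 1.07, 1.87 and 1.57 in FLM_G, with no overlap between any of the groups. The change of Cxcl14 was -2.36 in FLM_M against BMM (SE 0.11, limma adjusted p = 4.1e-07), where the BMM mean was 5.53 times higher. It was -4.53 in FLM_G against BMM (SE 0.11, limma adjusted p = 2.1e-09), where the BMM mean was 37.5 times higher, and -2.17 in FLM_G against FLM_M (SE 0.11, limma adjusted p = 2.38e-07). Cxcl14 is also made by stromal and epithelial cells. Of 9 fibroblast, stromal and endothelial markers none had a mean of 1 FPKM in BMM, where Cxcl14 was highest, and the list summed to 1.38 to 1.65 FPKM there. In FLM_M the list summed to 6.45 to 8.36, led by Kdr at 6.63, and in FLM_G to 4.38 to 4.61. The collagen genes Col1a1 and Col1a2 had means of 0.0577 and 0.0249 FPKM in BMM and were at 0 in both fetal liver cultures. Of 10 hepatic, epithelial and erythroid markers, 7 were at 0 in every library, among them Krt8, Krt18, Epcam and Alb, and the sums, led by Afp, were 1.59 to 1.93 in BMM, 2.15 to 2.66 in FLM_M and 0.809 to 1.13 in FLM_G. The part of such cells in Cxcl14 was not tested.

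Cxcl16 was well expressed in BMM and FLM_M and below 1 FPKM in FLM_G. It stood at 30.2, 32.7 and 29.9 FPKM in BMM, at 38.5, 39.6 and 39.0 in FLM_M, and at 0.226, 0.251 and 0.185 in FLM_G. The FLM_M libraries were the highest without overlap, and the spread within each group was small. Cxcl16 rose by 0.33 in FLM_M against BMM (SE 0.05, limma adjusted p = 0.00092), 1.26 times the BMM mean, which did not pass a test against a 1.5-fold change (adjusted p = 1). In FLM_G it was lower, with a change of -4.71 against BMM (SE 0.05, limma adjusted p = 2.28e-11) and of -5.04 against FLM_M (SE 0.05, limma adjusted p = 1.13e-11). The means of BMM and FLM_M were 140 and 176.9 times that of FLM_G. Zmynd15, which overlaps the start of Cxcl16 on the opposite strand, was at 0.806 to 1.27 FPKM in BMM, 1.41 to 1.56 in FLM_M and 0 to 0.0187 in FLM_G, so it was also lowest in FLM_G. Whether reads were shared between them was not tested.

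**Figure D1:**
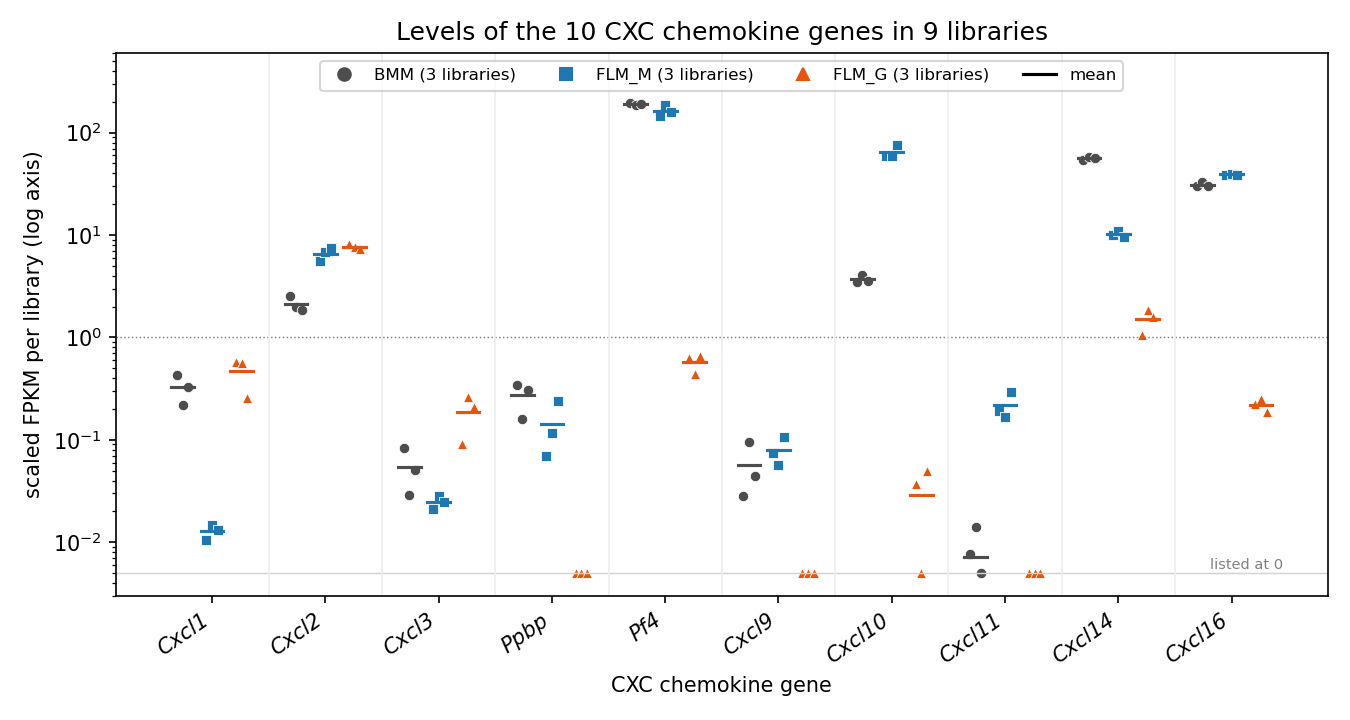
Scaled FPKM of the 10 CXC chemokine genes (log axis; x axis: gene, ordered by receptor group) in each of the 9 libraries, with a short line at the mean of each culture, values of 0 drawn on the grey line and the dotted line at 1 FPKM. Pf4, Cxcl10, Cxcl14 and Cxcl16 sit near or under 1 in FLM_G, where Cxcl2 alone lies well above it.

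Counted over the family, 5 of the 10 genes passed the filter for testing (Cxcl2, Cxcl10, Cxcl14, Cxcl16 and Pf4), of which Cxcl10, Cxcl16 and Pf4 passed through BMM and FLM_M alone. Against BMM, 4 of these 5 were called in FLM_M, 3 higher (Cxcl2, Cxcl10 and Cxcl16) and 1 lower (Cxcl14), where 44.6% of all tested genes were called, 22.7% higher and 21.9% lower. In FLM_G against BMM all 5 were called, 1 higher (Cxcl2) and 4 lower, where 68% of all tested genes were called, 33.8% higher and 34.1% lower. In FLM_G against FLM_M 4 of the 5 were called, all lower, where 70.6% of all tested genes were called, 35.5% higher and 35.1% lower. With that many genes called, the counts say little about the family. The median size of the change among the 5 was 1.28, 4.53 and 5.04 in these comparisons, beside 0.22, 0.39 and 0.44 over all tested genes. These 5 are the members that were above 1 FPKM in some culture. Over all 10 members, in a fit with no filter, the median size was 0.29, 0.89 and 0.40, beside 0.10, 0.17 and 0.19 over its 21953 genes. Each culture enters 2 of the comparisons, so these values are not independent. Without scaling the median gene lay 0.34 lower in FLM_G than in BMM and 0.39 lower than in FLM_M, and the calls over all genes became 2081 higher and 6775 lower against BMM, 2218 higher and 7075 lower against FLM_M, and, for FLM_M against BMM, 3323 higher and 2240 lower, instead of 4044 and 4081, 4246 and 4195, and 2716 and 2613. The members' own calls were the same in number and direction without scaling.

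**Figure D2:**
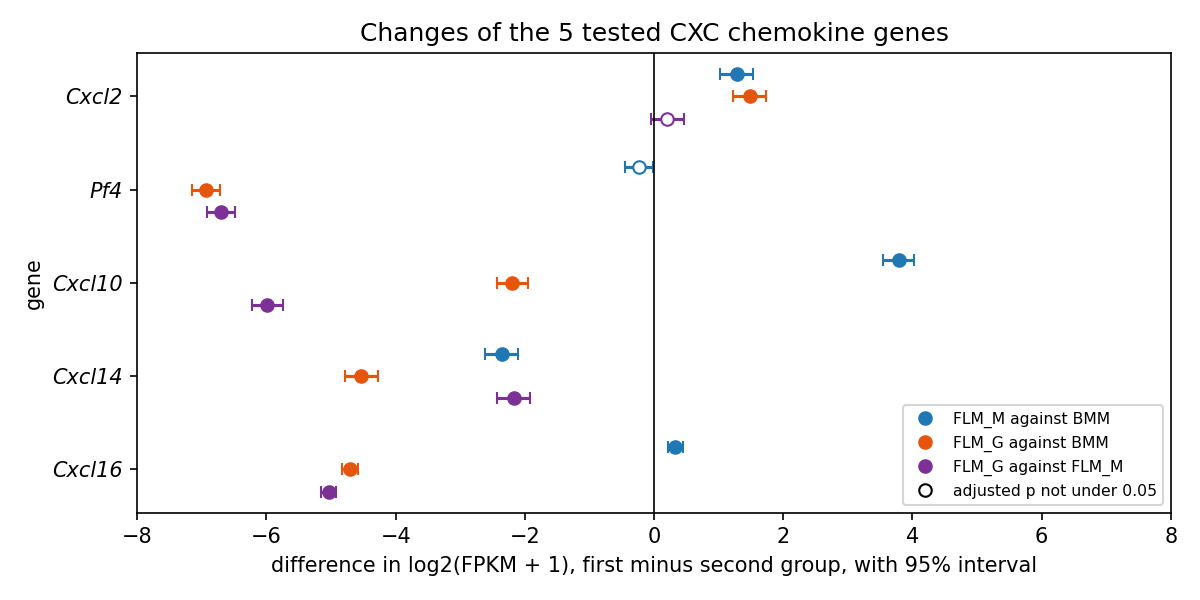
Difference in log2(FPKM + 1) (x axis, with its 95% interval) of the 5 tested genes (y axis) in the 3 comparisons, open points not called. Cxcl2 is the 1 gene on the right of 0 in FLM_G against BMM, at 1.48, and Pf4 the farthest to the left, at -6.94.

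The summed level of the 10 genes was 286 ± 2 FPKM in BMM, 285 ± 24 in FLM_M and 10.7 ± 0.4 in FLM_G, so FLM_M and BMM had sums within the spread between libraries but another make-up. FPKM are per length, so the shares compare transcripts. In BMM Pf4 made up 67.2% ± 1.2 of the sum, Cxcl14 19.7% ± 0.8, Cxcl16 10.8% ± 0.6 and Cxcl10 1.30% ± 0.12. In FLM_M Pf4 made up 57.4% ± 3.6, Cxcl10 22.8% ± 3.3, Cxcl16 13.8% ± 1.0 and Cxcl14 3.59% ± 0.30. Cxcl10 and Cxcl14 thus changed places between these cultures. In FLM_G Cxcl2 made up 72.1% ± 3.2, Cxcl14 14.1% ± 3.7, Pf4 5.43% ± 1.32 and Cxcl1 4.33% ± 1.59. In the order of levels, the first 5 genes in BMM and in FLM_M each lay clear of the next in every library. In FLM_G Cxcl2 and Cxcl14 did, while Pf4 and Cxcl1 overlapped, as did Cxcl16 and Cxcl3.

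**Figure D3:**
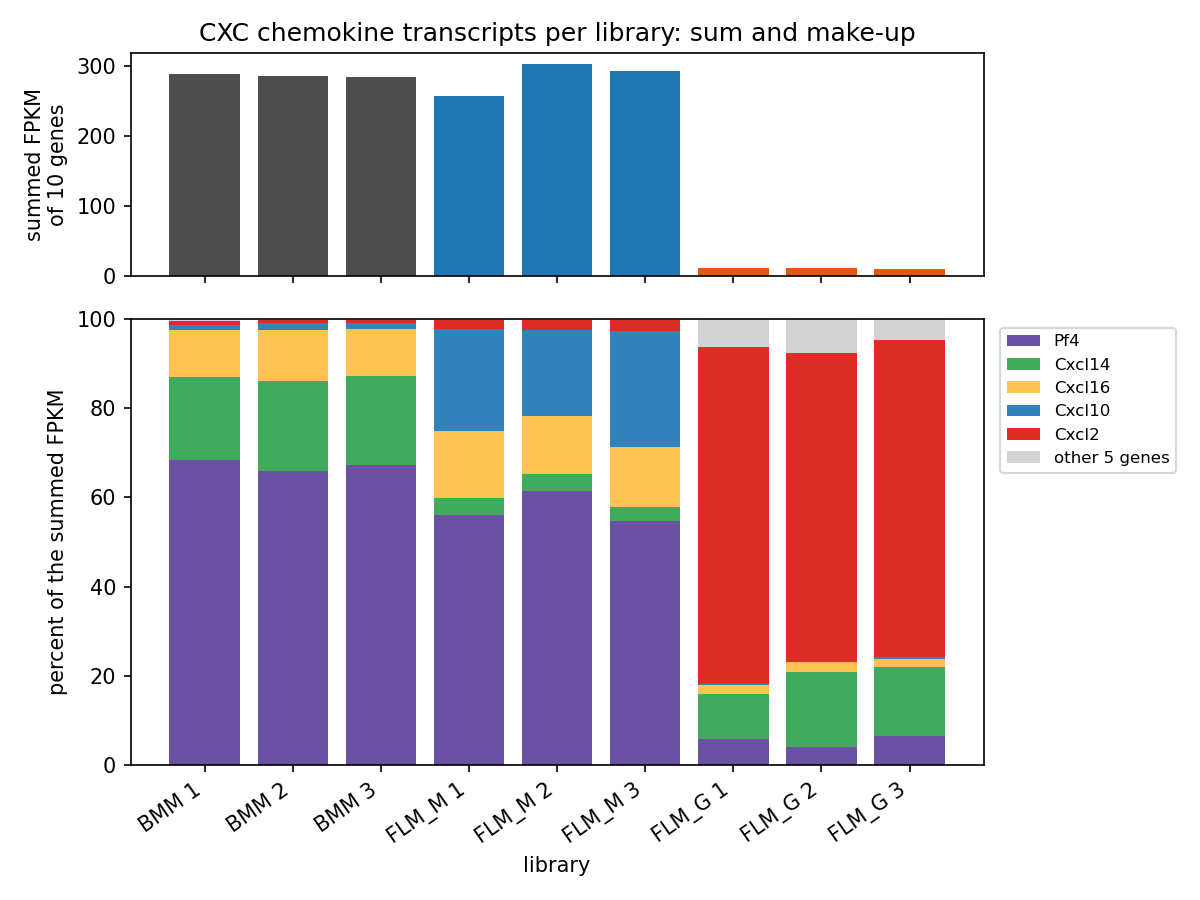
Top, the summed FPKM of the 10 genes in each library (bars from 0); bottom, the percent of that sum held by Pf4, Cxcl14, Cxcl16, Cxcl10, Cxcl2 and the other 5 genes (x axis: library). The sum is near 286 FPKM in BMM and 10.7 in FLM_G, where Cxcl2 holds 72.1%.

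The 5 other CXC ligands looked up (Cxcl5, Cxcl12, Cxcl13, Cxcl15 and Cxcl17) added nothing to this, being listed at 0 in every library except Cxcl13, which read 0.0651 to 0.124 FPKM in FLM_M. Of 8 receptors, 2 were tested. Cxcr4, the receptor of Cxcl12, stood at 14.5, 16.0 and 17.2 FPKM in BMM, at 23.6, 24.7 and 24.2 in FLM_M, and at 19.2, 22.8 and 20.6 in FLM_G. It rose in FLM_M against BMM by 0.58 (SE 0.08, limma adjusted p = 0.000303). The difference of 0.37 between FLM_G and BMM (limma adjusted p = 0.00212) was -0.03 without scaling (adjusted p = 0.747), and that of -0.20 between FLM_G and FLM_M (limma adjusted p = 0.0378) lost its call in 5 of the 9 fits that left out 1 library, with adjusted p = 0.167 without FLM_G replicate 1.

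Cxcr3, the receptor of Cxcl9, Cxcl10 and Cxcl11, was low in all cultures, at 3.10, 3.69 and 3.54 FPKM in BMM, 4.59, 4.68 and 4.28 in FLM_M, and 0, 0 and 0.0426 in FLM_G. Cxcr3 rose by 0.31 in FLM_M (SE 0.06, limma adjusted p = 0.00381) and was lower in FLM_G, with a change of -2.13 (SE 0.06, limma adjusted p = 6.72e-09) against BMM. Cxcr2, the receptor of Cxcl1, Cxcl2 and Cxcl3, was not tested and read 0.603, 1.07 and 0.925 in FLM_G against at most 0.026 in the other 6 libraries. Cxcr1 was at 0.262 to 0.376 in FLM_G and at most 0.0762 elsewhere, and Cxcr5 at most 0.0351. Cxcr6, the receptor of Cxcl16, and the scavenging receptors Ackr1 and Ackr3 were listed at 0 in all 9 libraries. Of 10 neutrophil markers, 5 were at 0 in all libraries, among them Ly6g and Elane, and 8 were at 0 in every FLM_G library. S100a8, which macrophages can also express, had means of 1.94 FPKM in BMM, 10.99 in FLM_M and 53.3 in FLM_G, whereas S100a9 had 0.974 in BMM and was at 0 in both fetal liver cultures, and Mpo had 0.104 in BMM and was likewise at 0. The sum over the list, which S100a8 set, was 2.65 to 3.52 FPKM in BMM, 9.51 to 12.3 in FLM_M and 49.7 to 56.7 in FLM_G. The part of such cells in the receptor values was not tested. Of 8 T and NK cell markers, Cd3e, Cd3g, Cd8a, Ncr1, Gzma and Nkg7 were at 0 in every library. Cd4 read 0.0263 to 0.0777 FPKM in BMM and FLM_M and 0 in FLM_G. Klrb1c read 0.202 to 0.300 in FLM_G and at most 0.0297 elsewhere. In bulk RNA, fewer cells of a type and less RNA per cell cannot be told apart.

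Genes of interferon signalling, which control Cxcl9, Cxcl10 and Cxcl11, included some that went with Cxcl10, higher in FLM_M and lower in FLM_G. Of 19 listed genes 17 were tested, and 6 rose and 2 fell in FLM_M against BMM (median change 0.08, beside 0.00 over all tested genes). In FLM_G against BMM 3 rose and 10 fell (median -0.49), and against FLM_M 3 rose and 10 fell (median -0.71). The 8 called of 17 in FLM_M against BMM are near the 44.6% of all tested genes, and the 10 lower in each of the other comparisons stand beside 34.1% and 35.1% of all tested genes lower. Without scaling these counts were 8 and 1, 1 and 13, and 1 and 14. Irf7, the transcription factor that amplifies the interferon response, had 21.3 ± 0.8 FPKM in BMM, rose to 57.1 ± 1.6 in FLM_M and fell to 2.52 ± 0.56 in FLM_G. The signal transducer Stat2 rose from 24.1 ± 2.0 to 63.2 ± 2.9 in FLM_M. Usp18, an interferon-induced inhibitor of the receptor, rose from 12.5 ± 0.3 to 106.5 ± 6.1 in FLM_M and fell to 0.68 ± 0.23 in FLM_G. In FLM_G the receptor subunit Ifnar1 fell from 23.9 ± 0.5 to 7.28 ± 0.43, and Irf5 from 52.2 ± 19.4 to 18.4 ± 6.8. The interferon gene Ifnb1 was listed at 0 in BMM, read 0.545, 0.702 and 0.638 in FLM_M and at most 0.0529 in FLM_G, and Ifng was listed at 0 throughout.

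Genes that act through NF-kB or on the stability of Cxcl1, Cxcl2 and Cxcl3 mRNA went both ways in every comparison. All 18 listed genes were tested, and 6 rose and 2 fell in FLM_M against BMM (median 0.06), 11 rose and 5 fell in FLM_G against BMM (median 0.54, beside 0.00 over all tested genes), and 8 rose and 6 fell in FLM_G against FLM_M (median 0.12). The 8 called of 18 in FLM_M against BMM are near the 44.6% of all tested genes, and the 16 and 14 called in the other comparisons stand beside 68% and 70.6%. They include Il1a and Il1b, which reached 1 FPKM in FLM_G alone. Without scaling the counts were 7 and 1, 8 and 7, and 6 and 10. Whether the list differs from other genes was not tested. The interleukin genes Il1a and Il1b, whose products induce these chemokines, had 0.0806 ± 0.0968 and 0.0548 ± 0.0493 FPKM in BMM and rose to 97.8 ± 2.0 and 18.1 ± 0.6 in FLM_G. Zc3h12a, whose product degrades inflammatory mRNAs, rose from 5.91 ± 0.25 to 24.6 ± 0.6 in FLM_G and fell to 4.31 ± 0.11 in FLM_M. Egr1 was called higher in FLM_G on 7.79, 6.12 and 41.7 FPKM against 1.13 to 1.84 in BMM. In FLM_M Nfkbiz, a coactivator of NF-kB, rose from 1.85 ± 0.12 to 5.30 ± 0.09, the cytokine gene Tnf from 33.4 ± 1.3 to 48.8 ± 1.9 and Jun from 50.7 ± 1.8 to 67.0 ± 2.4.

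**Figure D4:**
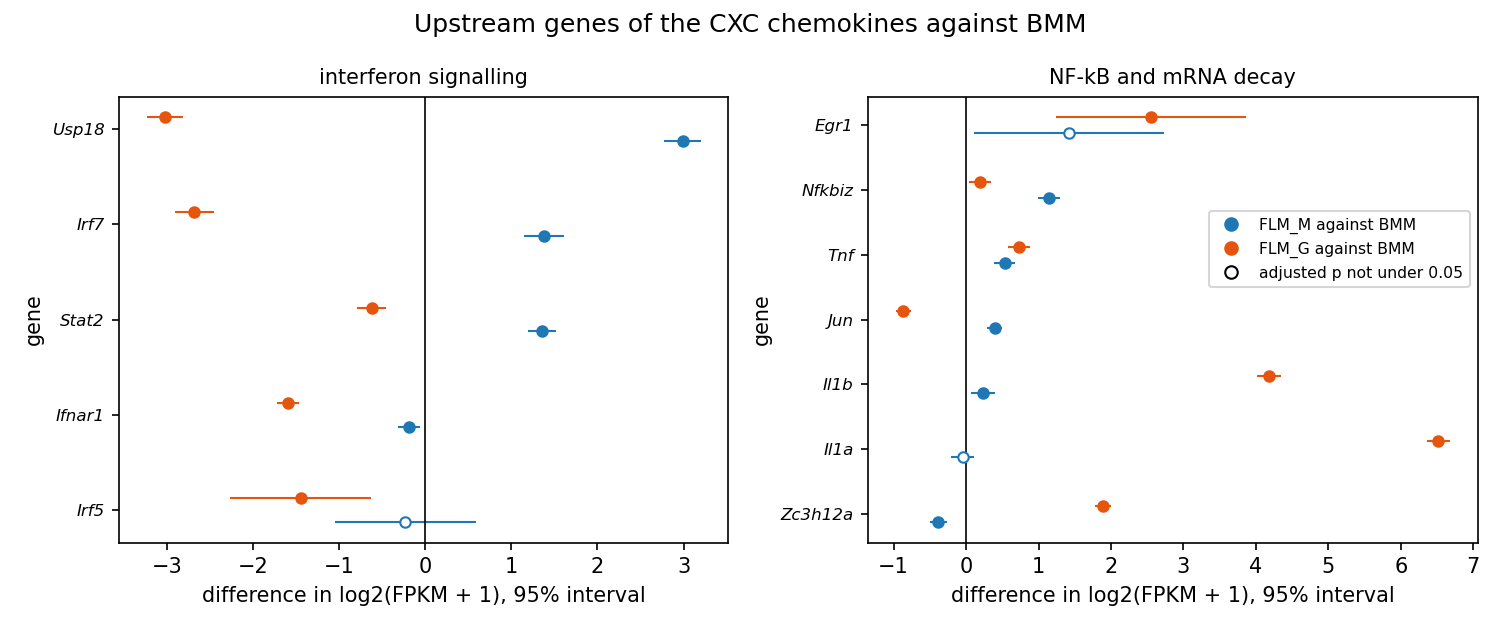
Difference in log2(FPKM + 1) against BMM (x axis, with 95% interval) for the genes named in the text, of interferon signalling (left) and of NF-kB signalling and mRNA decay (right), genes on the y axis, blue for FLM_M and orange for FLM_G, open points not called. Usp18, Irf7 and Stat2 lie right of 0 in FLM_M and left of 0 in FLM_G, and Il1a lies farthest to the right in FLM_G.

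Genes that process or store chemokines went both ways. Of 14 listed, 11 were tested, and 3 rose and 6 fell in FLM_M against BMM, 3 rose and 6 fell in FLM_G against BMM, and 3 rose and 5 fell in FLM_G against FLM_M (medians -0.88, -0.74 and 0.08). Of all tested genes 44.6%, 68% and 70.6% were called in these comparisons, so 8 called of 11 in the last is near that share. The 3 higher and 6 lower of 11 stand beside 22.7% and 21.9% of all tested genes in FLM_M against BMM. In FLM_G against BMM they stand beside 33.8% and 34.1%. The 11 include Mmp9, which reached 1 FPKM in FLM_M alone, and Timp1, which reached it in BMM alone. Without scaling the counts were 3 and 6, 3 and 7, and 3 and 6. Whether this list differs from other genes was not tested. Adam10, the protease that sheds Cxcl16 from the membrane, had 80.5 ± 5.4 FPKM in BMM and fell to 43.2 ± 2.3 in FLM_M and 45.9 ± 4.9 in FLM_G. Srgn, the granule proteoglycan that holds Pf4 in platelets, fell from 31.0 ± 1.1 to 8.48 ± 0.74 in FLM_M and to 4.24, 4.66 and 1.35 in the FLM_G libraries. The Pf4 of FLM_M thus stood beside a lower Srgn. Mmp12, a macrophage protease that can cleave CXC chemokines, rose from 11.8 ± 0.5 to 31.8 ± 1.5 in FLM_M and 377 ± 32 in FLM_G, and the related Mmp8 had 2.94 ± 0.16 in BMM, fell to 0.0317 ± 0.0102 in FLM_M and rose to 18.7 ± 1.5 in FLM_G. Ctsl, a lysosomal protease, fell from 875.6 ± 29.5 to 429.7 ± 19.5 in FLM_M, and Ctsk rose from 1.62 ± 0.26 to 1078 ± 5 in FLM_G.

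The genes most like each well-expressed member were found by Pearson correlation of log2(FPKM + 1) over the 9 libraries, among 8104 genes with a mean of at least 5 FPKM in a culture. The libraries fall into 3 cultures, so a high value mostly says that the order and spacing of 3 means are alike. For Cxcl10 they were Tgtp2 (an interferon-inducible GTPase, Pearson r = 0.9998), Ifit3b (an interferon-stimulated gene, 0.9993) and Adcy2 (an adenylyl cyclase, 0.9988), and 79 genes exceeded 0.99. For Cxcl14 they were Adssl1 (0.9993), Pltp (a phospholipid transfer protein, 0.999) and Bin1 (0.9978), and 25 genes exceeded 0.99. For Cxcl16 they were Tubb2b, C1qc and Prdx4 (0.9998, 0.9998 and 0.9996), and 184 genes exceeded 0.99. For Pf4 they were Spag5, Fcrls and Ms4a6c (0.9992, 0.9991 and 0.9991), and 161 genes exceeded 0.99. Fcrls stood at 70.6 FPKM in BMM, 60.5 in FLM_M and 0.0458 in FLM_G, and Spag5 had 4.70 FPKM in FLM_G.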

How the data were processed

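Stranded mRNA libraries were sequenced for 101 cycles from 1 end, per the labels' protocols. Per the submitters' processing notes the builds were named as mm10 and GRCm38, and the tools as bcl2fastq, FastQC, cutadapt, HISAT2, StringTie and DESeq2. Versions, and the tool behind each table, were not given in the sources used here. The authors deposited FPKM and whole-number counts for 46078 genes. The deposited counts summed to 782400 to 1170813 per library, 2.51% to 3.5% of the reads estimated from the FPKM. FPKM were therefore the main measure and the counts an alternative. FPKM were scaled by TMM factors (0.801 to 1.14, unweighted, edgeR 4.0.16). log2(FPKM + 1) was fitted with limma 3.58.1 (trend, R 4.3.3), a mean per culture over 9 libraries, 6 residual degrees of freedom, p-values adjusted over 11952 genes. The step was tested on simulated data.

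Alternatives were RLE, upper-quartile, quantile and no scaling, no filter, fits to the 6 libraries of each pair of cultures, a minimum of 5 FPKM, a pseudocount of 0.1, a replicate block, limma's treat at a fold of 1.5, each library left out, and the count table tested with edgeR and DESeq2 1.42.0. Members and lists were chosen with earlier results of these data known. Named were all members, CXC receptors and other CXC ligands. From the other lists up to 4 called genes per comparison were named, with the largest change and a mean of at least 5 FPKM. The sex genes, opposite-strand genes, single markers, Mmp9 and Timp1 were chosen after their values were seen. The genes most like a member were sought for members reaching 20 FPKM, 3 each. Some listed genes are counted but not reported here by name.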

Additional observations from a re-analysis of the deposited data

How the results depend on the processing

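Leaving out 1 library in turn gave 4192 to 5509 called genes for FLM_M against BMM, 7239 to 8063 for FLM_G against BMM and 7606 to 8242 for FLM_G against FLM_M, and 4 to 5, 5 and 4 called CXC chemokines. The counts over all genes fell to 1045, 2740 and 3162 in a test against a 1.5-fold change, which asks for more, and to 1300, 2458 and 2855 with edgeR and 844, 2210 and 2638 with DESeq2 on the count table, in which the members had at most 64 counts per library. These fits tested other numbers of genes. With edgeR 7490 genes were tested, among them 4 members, without Cxcl2. With DESeq2 12370 genes were tested in FLM_M against BMM and 12694 in FLM_G against BMM. On the counts edgeR and DESeq2 each called 2 members in FLM_M against BMM and 3 in FLM_G against BMM. The changes given by edgeR and DESeq2 are log2 ratios of counts, a scale unlike differences in log2(FPKM + 1), so their sizes do not compare directly. Cxcl10 in FLM_G against BMM was lower but lost its call (-1.05 with edgeR, adjusted p = 0.616, and -1.12 with DESeq2, adjusted p = 0.721), and so few counts limit these tests. Calls lost in the same way were Cxcl16 in FLM_M against BMM (0.26 with edgeR, adjusted p = 0.541) and Cxcl14 in FLM_G against FLM_M (-1.99 with edgeR, adjusted p = 0.067), both also with DESeq2, and those of Cxcl2 against BMM with DESeq2. Pf4 in FLM_M against BMM, not called in the main analysis, turned to 0.23 with edgeR and 0.16 with DESeq2, also not called. Cxcl2 in FLM_G against FLM_M turned to -0.22 without scaling and to -0.17 with DESeq2. With no filter all 10 members were among 21953 genes tested. In FLM_M against BMM 6 members were called (4 higher, 2 lower), beside 6358 of all genes (3161 higher, 3197 lower). In FLM_G against BMM 8 members were called (2 higher, 6 lower), beside 9996 of all genes (4760 higher, 5236 lower). In FLM_G against FLM_M 8 members were also called (2 higher, 6 lower). These counts include genes under 1 FPKM, and whether the members differ from other genes was not tested. Of the single-gene values under these alternatives, 297 kept their direction and their side of the threshold, 9 lost their call, 2 gained one and 4 turned. Deviations of same-numbered libraries correlated at -0.0771 to 0.0899, beside -0.0958 to 0.0724 for differently numbered ones. In FLM_G against BMM the same-numbered pairs were all positive (0.0534 to 0.0899) and the others all negative (-0.051 to -0.0232). Correlations this weak cannot show whether same-numbered libraries were handled together. The replicate block gave 5140, 8018 and 8386 called genes and the same counts of members, 4, 5 and 4.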
